A study of Drosophila melanogaster with 56 samples.

Results

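The cytochrome P450 genes of *Drosophila melanogaster* were taken as all genes of the count table whose symbol begins with Cyp and a digit, with 1 gene left out of the set. The rule found 85 of 17490 genes. One of them, *Cyp1*, is a cyclophilin, a protein-folding enzyme and not a P450, so its values are given apart and 84 genes are described as P450s. Of these, 81 passed a filter on low counts that kept 15675 genes, and their transcript levels are described by sex, by genotype and by line.

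Libraries came from pools of 30 whole mated flies of the Canton S (B) background, with adults aged 3 to 5 days, each pool of a single sex. In every line, controls included, the *Obp50a* to *Obp50d* cluster (odorant-binding protein genes on chromosome 2R) had been deleted with CRISPR and a version of it put back at its own site by PhiC31 integrase, after which the plasmid was trimmed by passing the flies through a Cre-expressing line. Obp50Pos carries the intact cluster and Obp50Neg has premature stop codons in all 4 genes. Obp50a, Obp50b, Obp50c and Obp50d each keep only the named gene intact, with stop codons in the others. Obp50NegBCD has missense changes in *Obp50b* and stop codons in *Obp50a*, *Obp50c* and *Obp50d*, and Obp50cBCD has missense changes in *Obp50b* with *Obp50c* intact and stop codons in *Obp50a* and *Obp50d*. Each sex of a genotype had 4 libraries from 2 lines, except Obp50Pos and Obp50d with 2 libraries from 1 line, so that in those genotypes the line and the genotype cannot be told apart. Of the females, 1 library of Obp50Pos and 1 of Obp50cBCD were excluded by the study, which leaves 26 female and 28 male libraries here, with n = 1 for Obp50Pos females and n = 3 for Obp50cBCD females.

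Cytochrome P450s are heme enzymes that insert an oxygen atom into lipophilic molecules, with electrons passed on by a reductase. In insects they fall into 4 groups called clans. Enzymes of the mitochondrial clan and of clan CYP2 include those that make and inactivate the moulting hormone ecdysone. Clans CYP3 and CYP4 hold most of the family, among them enzymes that break down plant toxins and insecticides, and many of them are made in the gut, the Malpighian tubules (the fly's kidney) and the fat body, its storage and detoxifying organ. The rule takes no P450s named for mutant phenotypes, such as the Halloween genes of ecdysone synthesis, which are given beside the family below.

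Assigned counts per library ranged from 14638498 to 53517693 fragments. Sex markers matched the labels in the libraries used: summed transcripts of 13 female marker genes were at 10761 CPM (fragments of a gene relative to all assigned fragments of its library, set to the same total in every library) or above in females and at most 3613 in males, and those of 17 male marker genes at 5208 CPM or above in males and at most 104 CPM in females. Gene levels below are CPM scaled between libraries by edgeR's TMM method. Summed yolk protein transcripts exceeded 100 unscaled CPM in 8 of 28 male libraries. Females of Obp50c line 24 stood apart from all others, with 7123 and 8075 unscaled CPM of yolk protein transcripts where the other female libraries held 16234 or more. File headers name 3 library sets (39, 14 and 3 libraries) that partly follow genotype. All Obp50Neg, Obp50NegBCD and Obp50c libraries belong to the first, and all female Obp50a libraries and all Obp50Pos libraries used here to the second. In whole flies, fewer cells of a type and less RNA per cell cannot be told apart.

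The family is dispersed over the genome and locally clustered. In the coordinates of the annotation that the authors counted on, 14 of the 84 genes lie on 2L, 35 on 2R, 6 on 3L, 16 on 3R and 13 on X. With a gap of under 10000 bases taken as the same array, 46 genes fell into 16 arrays. The largest, chromosome 2R from 14871366 to 14903095, holds 9 genes of clan CYP3 (*Cyp6a22*, *Cyp6a17*, *Cyp6a23*, *Cyp6a19*, *Cyp6a9*, *Cyp6a20*, *Cyp6a21*, *Cyp6a8* and *Cyp317a1*), and lies 498 kb from the *Obp50* cluster. Clan CYP3 has 40 genes, clan CYP4 31, the mitochondrial clan 9 and clan CYP2 4.

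Counting was without strand, and a fragment that overlapped 2 genes was not counted, which bears on 22 of the 85 genes whose exons overlap those of another gene. The 3 P450 genes that failed the filter were the most overlapped: *Cyp4d14* (at most 5 fragments in a library), *Cyp4d2* (at most 1) and *Cyp9c1* (at most 1) share 96.2%, 98.7% and 98.2% of their exon bases with an antisense RNA. Their low counts are therefore not a measure of their expression. Among the genes kept, *Cyp4ae1* shares 88.3%, *Cyp6d2* 51%, *Cyp303a1* 33% and *Cyp317a1* 32.6%, so their levels are understated to an unknown extent. *Cyp6a19* and *Cyp6a9*, which lie on opposite strands, share 397 bases. *Cyp12d1-d* and *Cyp12d1-p* are near-identical copies, and a fragment that aligned to both was not counted, so the levels of both can be understated. *Cyp6a15Psi* and *Cyp6t2Psi* are pseudogenes by their symbols.

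Summed over the family, P450 transcripts made up 1137 to 1876 CPM in female libraries and 1823 to 2441 CPM in male libraries, so that a few libraries overlapped between the sexes. Levels per kilobase of exon, the scale on which genes are compared with each other, had a median over the 81 genes of 3.80 CPM per kb in females and 5.42 in males. They ran from 0.146 to 70.3 CPM per kb in females and from 0.179 to 122 in males. *Cyp6d5* had the highest level in both sexes, with 70.3 CPM per kb in females and 122 in males. In females the next were *Cyp6a19* (67.5 CPM per kb), *Cyp12a5* (44.9), *Cyp9b2* (37.6), *Cyp6a20* (36.6) and *Cyp6a23* (35.8). In males they were *Cyp313a1* (68.8), *Cyp6g1* (67), *Cyp9b2* (62.4), *Cyp6a20* (55.6) and *Cyp312a1* (52). *Cyp6d5*, *Cyp9b2* and *Cyp6a20* were thus among the 6 highest in both sexes, whereas *Cyp312a1* was at 1.12 CPM per kb in females. By library the female leaders overlapped: *Cyp6d5* ran from 81.3 to 176 CPM (median 113) and *Cyp9b2* from 37.8 to 119 (median 62). In the plot of levels by sex most genes lie between the lines of 2-fold difference.

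**Figure D1:**
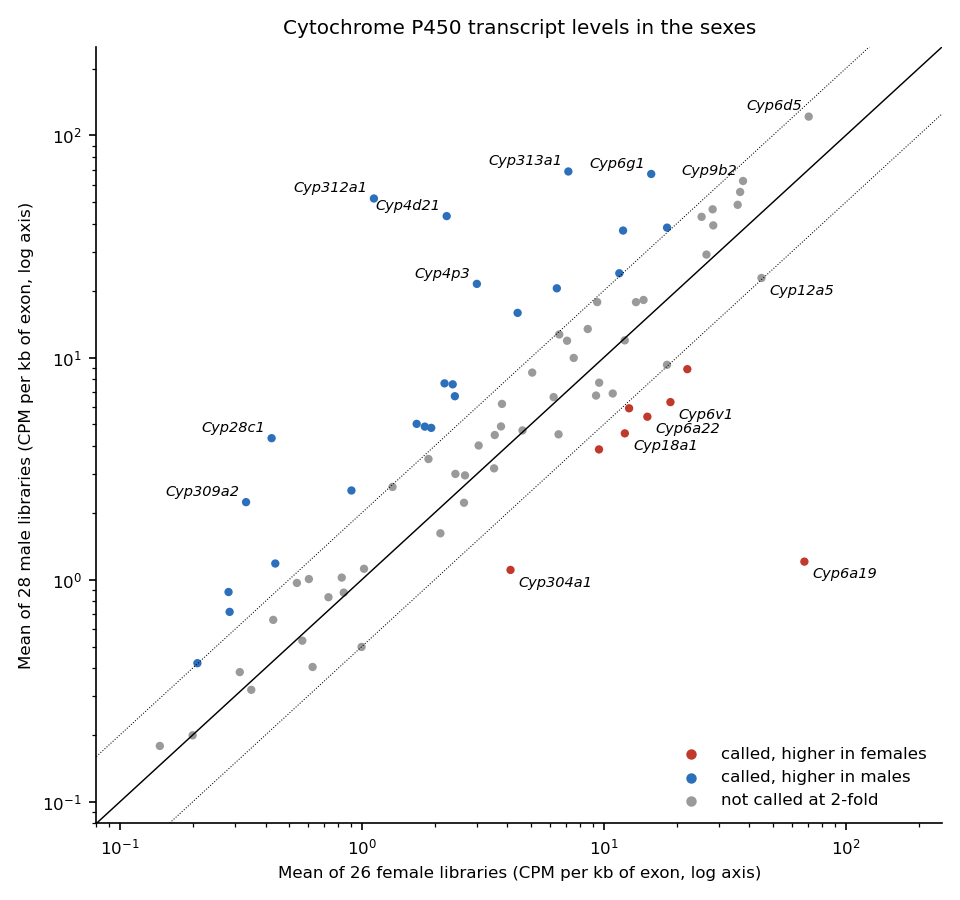
Mean level of the 81 P450 genes in females (x axis) and males (y axis), in CPM per kb of exon on log axes; the solid line marks equal levels, the dotted lines 2-fold differences, red and blue points genes called higher in females or males. *Cyp6a19* (67.5 against 1.21 CPM per kb) is the point farthest below the line, and *Cyp312a1* (1.12 against 52) the point farthest above it.

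The sexes differed in most of the family, more often with the higher level in males. At an adjusted p below 0.05 and a difference of at least 1 on the log2 scale, 23 of 81 genes were higher in males and 8 higher in females, which is 28.4% and 9.88% of the family. Of all 15675 genes tested, 30.7% were called higher in males and 21.9% higher in females. By the adjusted p alone, 50 genes (61.7%) were higher in males and 17 (21%) in females, against 44.6% and 40.1% of all genes, and 14 had no call. The sign of the sex difference was the same in 8 of 8 genotypes for 60 genes (74.1%), with no share of all genes given for this count. The libraries of the sexes did not overlap in 15 genes higher in males, 18.5% of the family where all genes gave 18.5%, and in 5 genes higher in females, 6.17% where all genes gave 13.7%. The median sex difference, female minus male, was -0.49 on the log2 scale over the P450 genes and -0.11 over all genes. With DESeq2 size factors the median of all genes moved to -0.30 and 31 P450 genes were called higher in males and 7 in females.

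The largest male excess was that of *Cyp312a1*, a clan CYP4 gene. Its female libraries held from 2.21 to 7.08 CPM (median 3.42) and its male libraries from 123 to 200 CPM (median 182), with no overlap. That is a 47.4-fold difference, -5.57 ± 0.13 on the log2 scale (SE; female minus male, adjusted p = 4e-30), and it ranged from -5.90 to -5.33 over the 8 genotypes. *Cyp4d21*, known as *sxe1* and linked to male mating success, ranged from 1.21 to 6.00 CPM (median 4.06) in females and from 53.8 to 101 CPM (median 76.6) in males. Its difference was 19.9-fold (-4.31 ± 0.11, adjusted p = 2.44e-29). *Cyp313a1* stood at 7.70 to 15.3 CPM (median 11.6) in females and at 67.9 to 139 CPM (median 113) in males, a 9.71-fold difference (-3.28 ± 0.08, adjusted p = 6.21e-30). In all 3 genes the lowest male library exceeded the highest female library by several fold.

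A further 4 genes differed by more than 4-fold without overlap between the sexes. *Cyp28c1* was low in both, at a median of 0.603 CPM in females (0.239 to 1.84) and 7.19 CPM in males (3.69 to 10.4), a log2 difference of -3.43 ± 0.18. *Cyp309a2* had a median of 0.594 CPM in females (0.0524 to 2.06) and 4.20 CPM in males (2.44 to 5.13), a log2 difference of -2.89 ± 0.24. *Cyp4p3* had a median of 4.91 CPM in females and 36.4 CPM in males (-2.87 ± 0.09). *Cyp6g1*, whose overexpression gives resistance to DDT and neonicotinoids, ranged from 18.4 to 48.5 CPM (median 33.9) in females and from 107 to 188 CPM (median 135) in males (-2.13 ± 0.06, adjusted p = 7.84e-28). The other 16 genes called higher in males differed by between 2.05-fold (*Cyp6a8*, known to be induced by barbiturates) and 3.66-fold (*Cyp6a18*). They included *Cyp28d1*, linked to nicotine resistance (3.18-fold), *Cyp310a1*, linked to Wingless signalling (3.54-fold), and *Cyp303a1*, needed for sensory bristles (3.16-fold).

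**Figure D2:**
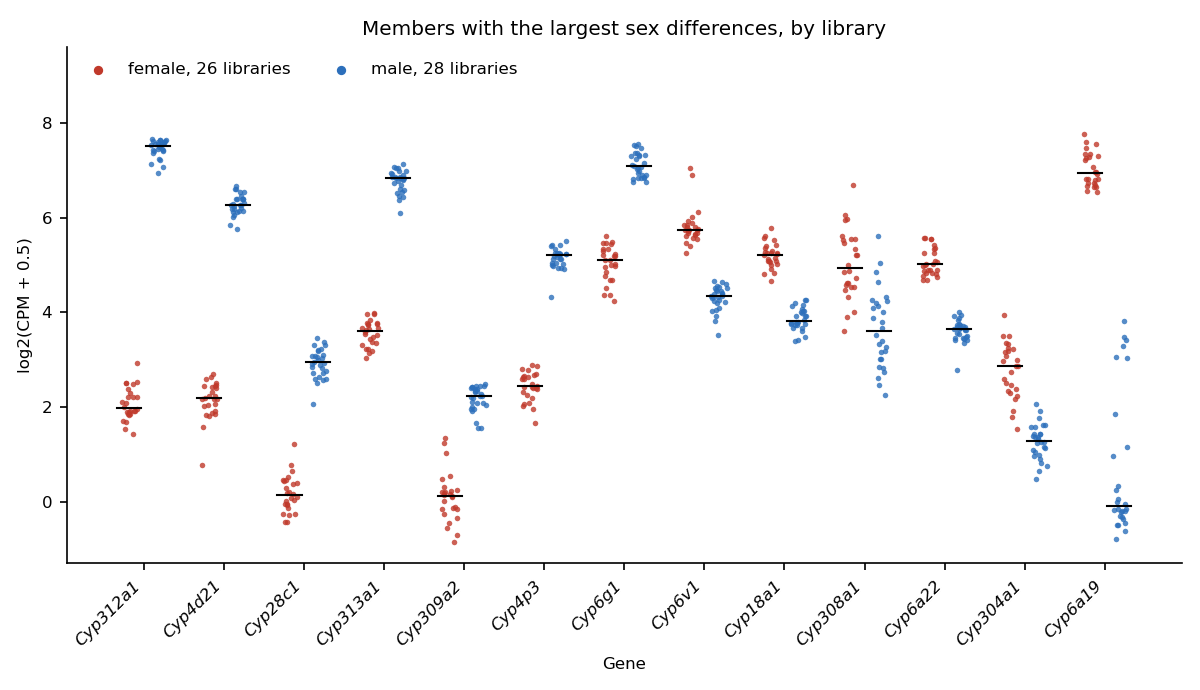
Level of 13 P450 genes in each library as log2(CPM + 0.5), female libraries in red (26) and male libraries in blue (28), with the median as a bar. From *Cyp312a1* to *Cyp6g1* all male libraries lie above all female ones; *Cyp6v1*, *Cyp18a1*, *Cyp6a22* and *Cyp6a19* show the reverse, and *Cyp308a1* and *Cyp304a1* overlap.

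Of the genes higher in females, *Cyp6a19* stood far from the rest. Female libraries ranged from 92.6 to 218 CPM (median 122) and male libraries from 0.0783 to 13.7 CPM (median 0.438). The difference was 121-fold (6.91 ± 0.48 on the log2 scale, adjusted p = 3.23e-16), and its values by genotype ran from 4.08 in Obp50b to 9.37 in Obp50Pos. Male libraries with more yolk protein transcripts also held more *Cyp6a19*. The 8 male libraries above 100 unscaled CPM of yolk transcripts had 0.691 to 13.7 CPM of *Cyp6a19*, and the other 20 had 0.0783 to 1.74 CPM. Set against the female medians, those 8 libraries held 0.450% to 10.7% of the yolk transcripts and 0.566% to 11.2% of *Cyp6a19*, and the other 20 held 0.0535% to 0.248% and 0.0641% to 1.43%. Of the 20 libraries lower in yolk transcripts, 1 of Obp50a line 11 (1.74 CPM) and 1 of Obp50cBCD line 5 (1.45 CPM) held more *Cyp6a19* than the 18 others. Without the 8 libraries the sex difference of *Cyp6a19* was 8.33 on the log2 scale. The presence of female RNA in these male libraries was not tested.

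**Figure D3:**
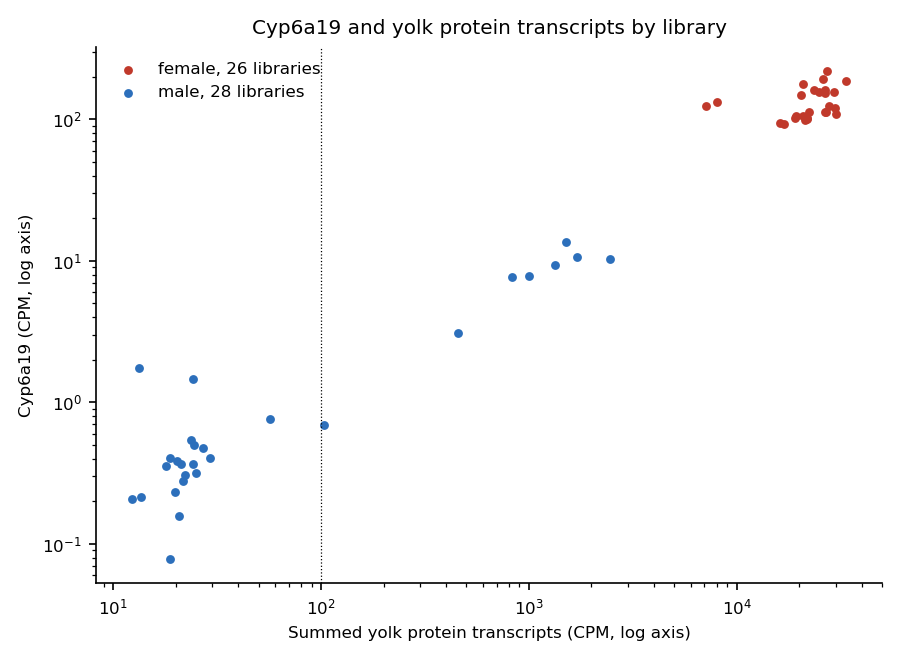
*Cyp6a19* (y axis, scaled CPM) against summed yolk protein transcripts (x axis, unscaled CPM) in each female (red) and male (blue) library, both on log axes; the dotted line marks 100 CPM. The 8 male libraries to the right of the line hold 0.691 to 13.7 CPM, the other males at most 1.74 and the females 92.6 or more.

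The remaining 7 genes higher in females differed by 2.24-fold to 3.60-fold. *Cyp18a1*, which inactivates ecdysone, ranged from 24.9 to 54.3 CPM (median 36.7) in females and from 9.97 to 18.6 CPM (median 13.6) in males, without overlap (1.42 ± 0.05, adjusted p = 6.02e-25). *Cyp6v1* (37.5 to 133 against 10.9 to 24.8 CPM, 1.55 ± 0.07) and *Cyp6a22* (25.1 to 46.9 against 6.38 to 15.6 CPM, 1.47 ± 0.08) did not overlap between the sexes either. *Cyp304a1* (1.85 ± 0.14), *Cyp308a1* (1.40 ± 0.16), *Cyp4d1* (1.28 ± 0.09) and *Cyp317a1* (1.16 ± 0.10) overlapped in some libraries, with all 8 genotype differences positive in each. *Cyp12c1* did not overlap (23 to 55.9 against 11.1 to 22.1 CPM) but fell short of the 2-fold minimum at 0.96 ± 0.06. The sex calls of both directions changed little when any single library was left out, with 8 or 9 genes higher in females and 23 to 25 higher in males.

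Some arrays held genes of both directions and others did not. In the 9-gene array on 2R, *Cyp6a22*, *Cyp6a19* and *Cyp317a1* were called higher in females and *Cyp6a8* higher in males, while *Cyp6a17* (-0.15), *Cyp6a9* (-0.33), *Cyp6a23* (-0.45), *Cyp6a20* (-0.62) and *Cyp6a21* (-0.97) did not pass the 2-fold minimum. Elsewhere, in genes partly singled out after their values were seen, *Cyp309a1* (-1.48) and *Cyp309a2* (-2.89) on 2L were both called higher in males, as were *Cyp6g1* (-2.13) and *Cyp6g2* (-1.48) on 2R. In the *Cyp4p* array on 2R *Cyp4p3* (-2.87) and *Cyp4p2* (-1.31) were called higher in males and *Cyp4p1* (-0.14) was not, and in the *Cyp4ac* array on 2L *Cyp4ac1* (-1.69) was called beside *Cyp4ac2* (-0.51) and *Cyp4ac3* (-0.39). Of the 44 tested genes in arrays 3 were called higher in females and 10 higher in males, and of the 37 outside arrays 5 and 13. Of all genes 21.9% and 30.7% were. By chromosome, 9 of 14 genes on 2L were called higher in males and 0 higher in females, where 1087 and 612 of all 3031 genes of 2L were. On X, 4 of 11 were called higher in females (*Cyp18a1*, *Cyp308a1*, *Cyp4d1* and *Cyp6v1*) and 1 higher in males (*Cyp28c1*), where 694 and 597 of all 2424 genes of X were. By clan, calls higher in females and in males were 5 and 13 of 39 in CYP3, 1 and 8 of 29 in CYP4, 2 and 1 of 4 in CYP2, and 0 and 1 of 9 in the mitochondrial clan. The same shares of all genes, 21.9% and 30.7%, stand beside these counts. *Cyp49a1* was the mitochondrial gene called (2.96-fold higher in males).

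The other mitochondrial P450s, several of which were singled out after their values were seen, differed by less than 2-fold and in both directions. *Cyp12a4*, whose overexpression gives resistance to the insecticide lufenuron, ranged from 30 to 64.7 CPM (median 43.6) in females and from 50 to 91.3 CPM (median 75.4) in males, with overlap (-0.79 ± 0.04, adjusted p = 6.04e-19). Its array neighbour *Cyp12a5* went the other way and spread widely, from 18 to 343 CPM (median 65.8) in females and from 16.3 to 101 CPM (median 35.5) in males (0.87 ± 0.12, adjusted p = 1.01e-08). *Cyp12e1* (-0.94 ± 0.10) and *Cyp12b2* (-0.66 ± 0.06) were higher in males by the adjusted p alone. *Cyp301a1*, which acts in forming the adult cuticle, had medians of 2.00 CPM in females and 2.13 CPM in males and no call.

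Of the 14 genes without a sex call at any size of difference, 7 were below 1 CPM per kb in females. *Cyp4d20* was the highest of them, with medians of 22.2 CPM in females (13 to 30.1) and 21.6 CPM in males (17.4 to 25.5), and its sex difference of 0.00 ± 0.07 on the log2 scale changed sign under other settings. Among the lowest genes of the family were *Cyp313a2* (0.146 CPM per kb in females and 0.179 in males) and *Cyp313a5* (0.200 and 0.199), neighbours in an array on 3R that were singled out after their values were seen. Some libraries of either sex held 0 fragments of *Cyp313a2* and *Cyp313a5*, and the SEs of their sex differences were 0.36 and 0.34 on the log2 scale.

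For the sex calls of the lists below, the shares over all genes were 30.7% higher in males and 21.9% higher in females. Among lists drawn up by function, 6 of 11 genes linked to insecticides and other foreign compounds were called higher in males and 0 higher in females, with a list median of -1.03 on the log2 scale. These were *Cyp6g1*, *Cyp6g2* (2.79-fold), *Cyp6a2* (2.81-fold), *Cyp28d1*, *Cyp6w1* (2.12-fold) and *Cyp6a8*, whereas *Cyp12d1-p* (0.09) and *Cyp12d1-d* (0.18) had no call. Between lines of a genotype 8 of these 11 differed in females and 4 in males, where 48% and 10.3% of all genes did. In the list of 5 hormone and development genes, *Cyp18a1* was called higher in females and *Cyp303a1* and *Cyp310a1* higher in males, and 2 of the 5 differed between lines in females and 0 in males, against the same shares of all genes. Of 4 genes linked to behaviour only *Cyp4d21* was called, and *Cyp6a20*, which affects aggression between males, was 1.53-fold higher in males at -0.62 ± 0.07 (adjusted p = 2.59e-10). Of the 6 ecdysone-making P450s with other symbols, 3 were called higher in females, *spo* (3.88), *sad* (2.50) and *dib* (2.44 on the log2 scale), and 0 higher in males. In a list of P450 electron partners, 6 genes were tested. *Cpr*, the reductase that serves microsomal P450s, was higher in males (-1.10, means of 478 CPM in females and 1016 CPM in males). *dare*, the mitochondrial adrenodoxin reductase, was higher in females (1.26). Of 8 regulators of the response to foreign compounds only *ss*, the fly homologue of the aryl hydrocarbon receptor, was called (-1.51, higher in males). In the 2 families that act after P450s in detoxification, 7 of 35 glutathione transferases were called higher in females and 5 higher in males, and 10 and 8 of 35 UDP-glycosyltransferases.

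Whether the sex difference varied among genotypes was tested jointly. By edgeR 0 of 81 genes were called, where 1.70% of all genes were. An unadjusted p under 0.05 was found for 15 of the 81, with no share of all genes given at that threshold. *Cyp308a1* had the smallest adjusted p (0.0638), with differences from 0.48 in Obp50b to 2.56 in Obp50cBCD, all positive. *Cyp6a8* (0.0945) ran from -1.44 in Obp50Neg to -0.48 in Obp50cBCD, and *Cyp12a5* (0.0980) from 0.12 in Obp50b to 1.54 in Obp50a. The count became 7 without the male libraries high in yolk transcripts, 4 in the first library set alone, 1 without the females of line 24, and 1 or 2 when 1 of 6 single libraries was left out. It was 2 without Obp50NegBCD female replicate 3, and 1 without Obp50Neg male replicate 2, Obp50c female replicate 2, Obp50cBCD male replicate 3, Obp50d female replicate 2 or Obp50Pos female replicate 1. The first set holds no Obp50Pos libraries and no Obp50a females, and without Obp50Pos female replicate 1 no Obp50Pos female is left. Those counts therefore come from fewer genotypes.

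Among the 8 genotypes, 19 of 81 genes (23.5%) differed in females, close to the 24.6% of all genes. They included *Cyp12a5* (adjusted p = 0.00144), *Cyp6g1* (0.00280), *Cyp4ac2* (0.00990), *Cyp6a13* (0.0118), *Cyp4d1* (0.0137) and *Cyp9b2* (0.0138). *Cyp6g1* in females was between 36.3 and 44 CPM in Obp50Neg and between 39.6 and 43.8 in Obp50NegBCD. It was lower, without overlap with Obp50Neg, in Obp50a (25.1 to 36 CPM), Obp50b (22.3 to 36.2 CPM), Obp50c (18.4 to 34.1 CPM) and Obp50d (20.2 and 25 CPM). Obp50cBCD spanned the Obp50Neg range (37, 48.5 and 30.9 CPM), and the 1 Obp50Pos library held 31.3 CPM. *Cyp6a13* ranged from 7.23 to 16.2 CPM in Obp50a and from 15.3 to 23.8 in Obp50NegBCD, and overlapped there. Of the 19 genes, 13 also differed between lines of a genotype (16% of the family, 13.6% of all genes). The mixed model used here was the study's with a random interaction of line and sex added. The count was 0 with counts summed by line, in this mixed model and in a fit of the females alone. It was 2 in limma with line as a random block and 7 by DESeq2. It also fell to 12 without Obp50d female replicate 1 and to 6 without the male libraries high in yolk transcripts, which enter the same fit, and rose to 30 in the first library set alone. That set holds no Obp50Pos libraries and no Obp50a females, so the 30 comes from a test of fewer genotypes.

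In the contrasts of Obp50Pos and the 4 single-gene genotypes with Obp50Neg, all of which share the 4 Obp50Neg libraries, 9 genes (11.1%) were called in females in at least 1 contrast, against 4.72% of all genes. Obp50Pos, with 1 female library, and Obp50a gave 0 calls by edgeR (4 and 15 genes at an unadjusted p under 0.05), where 0.0255% and 1.89% of all genes were called. For the unadjusted threshold no share of all genes is given. Obp50Neg belongs to the first library set, and the Obp50a females and the Obp50Pos libraries used, of either sex, to the second. In those contrasts the genotype and the set cannot be told apart. Obp50b gave 2 calls, both lower than in Obp50Neg (1.13% of all genes were called, and 0.389% as lower). *Cyp6a23* was at 38.1, 48.5, 50.6 and 45.6 CPM in Obp50b and at 92.8, 86.2, 69.4 and 85.8 CPM in Obp50Neg, without overlap (-0.87 ± 0.19, adjusted p = 0.00891). *Cyp28a5*, singled out after its values were seen, was at 14 to 21.1 CPM against 28.6 to 34 CPM (-0.73 ± 0.19, adjusted p = 0.0440).

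Obp50c gave 3 calls, all higher than in Obp50Neg (1.35% of all genes were called, and 1.16% as higher), and each came from 1 of its lines. In line 24 *Cyp12a5* was at 244 and 343 CPM, in line 6 at 75.3 and 59.2 CPM, where Obp50Neg held 50.1, 47.6, 54.1 and 65.2 CPM (1.73 ± 0.42, adjusted p = 0.0215). *Cyp4ac2* had 32.4 and 57.3 CPM in line 24, where line 6 (10.4 and 9.20 CPM) and Obp50Neg (9.25 to 10 CPM) were lower (1.51 ± 0.37, adjusted p = 0.0238). *Cyp6v1* had 133 and 119 CPM in line 24, above line 6 (49.3 and 48.2 CPM) and Obp50Neg (46.3 to 52.5 CPM) (0.83 ± 0.21, adjusted p = 0.0308). Line 6 therefore overlapped Obp50Neg in *Cyp6v1* and, in 1 of its libraries, in *Cyp12a5*. Without the females of line 24 the differences of *Cyp12a5*, *Cyp4ac2* and *Cyp6v1* were 0.31, 0.036 and -0.00746, and none of them was called.

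Obp50d, which has 1 line, gave 4 calls, all lower than in Obp50Neg (0.823% of all genes were called, and 0.663% as lower). The median of all genes in this contrast was -0.19 on the log2 scale. *Cyp311a1* was at 1.26 and 2.22 CPM against 4.38 to 6.55 CPM in Obp50Neg (-1.76 ± 0.44, adjusted p = 0.0417). *Cyp4d1* was at 11.6 and 11.2 CPM against 22.4 to 32.2 CPM (-1.17 ± 0.29, adjusted p = 0.0469). *Cyp6g1* was at 20.2 and 25 CPM against 36.3 to 44 CPM (-0.81 ± 0.21, adjusted p = 0.0484). *Cyp309a1*, singled out after its values were seen, was at 0.790 and 2.75 CPM against 4.78 to 6.35 CPM (-1.55 ± 0.41, adjusted p = 0.0498). None of these groups overlapped, and all 4 adjusted p lay near the threshold. Some summed tissue markers were lower in Obp50d females too, without overlap. Malpighian tubule markers were at 168 and 176 CPM against 195 to 228 in Obp50Neg, and midgut markers at 10232 and 10287 CPM against 13257 to 17184. Oenocyte markers were at 1143 and 1191 CPM against 1321 to 1666. Fat body markers were not lower, at 5864 and 6387 CPM against 3880 to 6076 CPM, with overlap. The part of the tissue markers in these differences was not tested.

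The count of these contrasts changed when single libraries were left out. It fell from 9 to 2 without Obp50Neg female replicate 1, to 1 without replicate 2, 3 or 4 of the same group, and to 4 or 5 without Obp50Neg male replicate 2, Obp50NegBCD male replicate 1, 2, 3 or 4, Obp50c female replicate 1, Obp50d female replicate 1, Obp50d male replicate 1 or 2 or Obp50Pos male replicate 1 or 2. It was 0 with counts summed by line, in limma with line as a random block and in the mixed model.

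In males 15 of 81 genes had an unadjusted p under 0.05 among genotypes, with no share of all genes given at that threshold. By the adjusted p 1 gene was called, where 2.98% of all genes were. This was *Cyp6a19* (adjusted p = 0.0336), at 0.318 to 0.499 CPM in Obp50Neg and at 0.546 to 13.7 CPM in Obp50b, which has 3 of the 8 male libraries high in yolk transcripts. Without these 8 libraries its adjusted p was 0.111, and it ranged from 0.00155 to 0.0931 when single libraries were left out. By DESeq2 22 genes were called, and 12 in a fit of the males alone. The next by edgeR were *Cyp6a8* (0.0679), *Cyp18a1* (0.0745), *Cyp4d1* (0.0827), *Cyp12a5* (0.0902) and *Cyp6g1* (0.0926), none of them called. *Cyp6g1* in males was at 158 to 181 CPM in Obp50Neg, 164 to 188 in Obp50NegBCD and 113 to 125 in Obp50a. No gene was called in the 5 contrasts with Obp50Neg (0 of 81 by edgeR, 0 in limma and 0 in the mixed model), where 0.0383% of all genes were called. By edgeR 19 genes had an unadjusted p under 0.05 in at least 1 of the 5 contrasts. With 5 tests per gene and no share of all genes given at that threshold, the 19 cannot be read as an excess. The joint count was 0 without any one of Obp50Neg male replicates 1 to 4, Obp50b male replicate 2, Obp50d male replicates 1 and 2 and Obp50Pos male replicates 1 and 2. It was 2 without any one of Obp50cBCD male replicates 1 and 3, Obp50a male replicate 1, Obp50c male replicates 3 and 4 and Obp50c female replicate 3. In the contrasts it was 1 without any one of Obp50NegBCD male replicate 4, Obp50b male replicate 1, Obp50a male replicate 1 and Obp50c male replicate 3.

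Lines of the same genotype differed in 40 of 81 genes (49.4%) in females, against 48% of all genes. In males they differed in 14 (17.3%), against 10.3%, and 9 genes (11.1%) were called in both sexes, against 7.85%. Lines 31 and 30 of Obp50Neg gave 0 calls in either sex (0.121% of all genes in females and 0.0510% in males). Lines 26 and 27 of Obp50NegBCD gave 1 in females (6.97% of all genes), *Cyp317a1* with 22.8 and 33.5 against 54.9 and 52 CPM (-0.93 ± 0.27, adjusted p = 0.0363), and 0 in males (0.0128%). The plot of differences between lines shows the calls concentrated in females of Obp50a and Obp50c. In males the count fell to 6 without Obp50c male replicate 1 or 2, to 8 without Obp50c male replicate 4 and to 9 without Obp50cBCD male replicate 1.

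**Figure D4:**
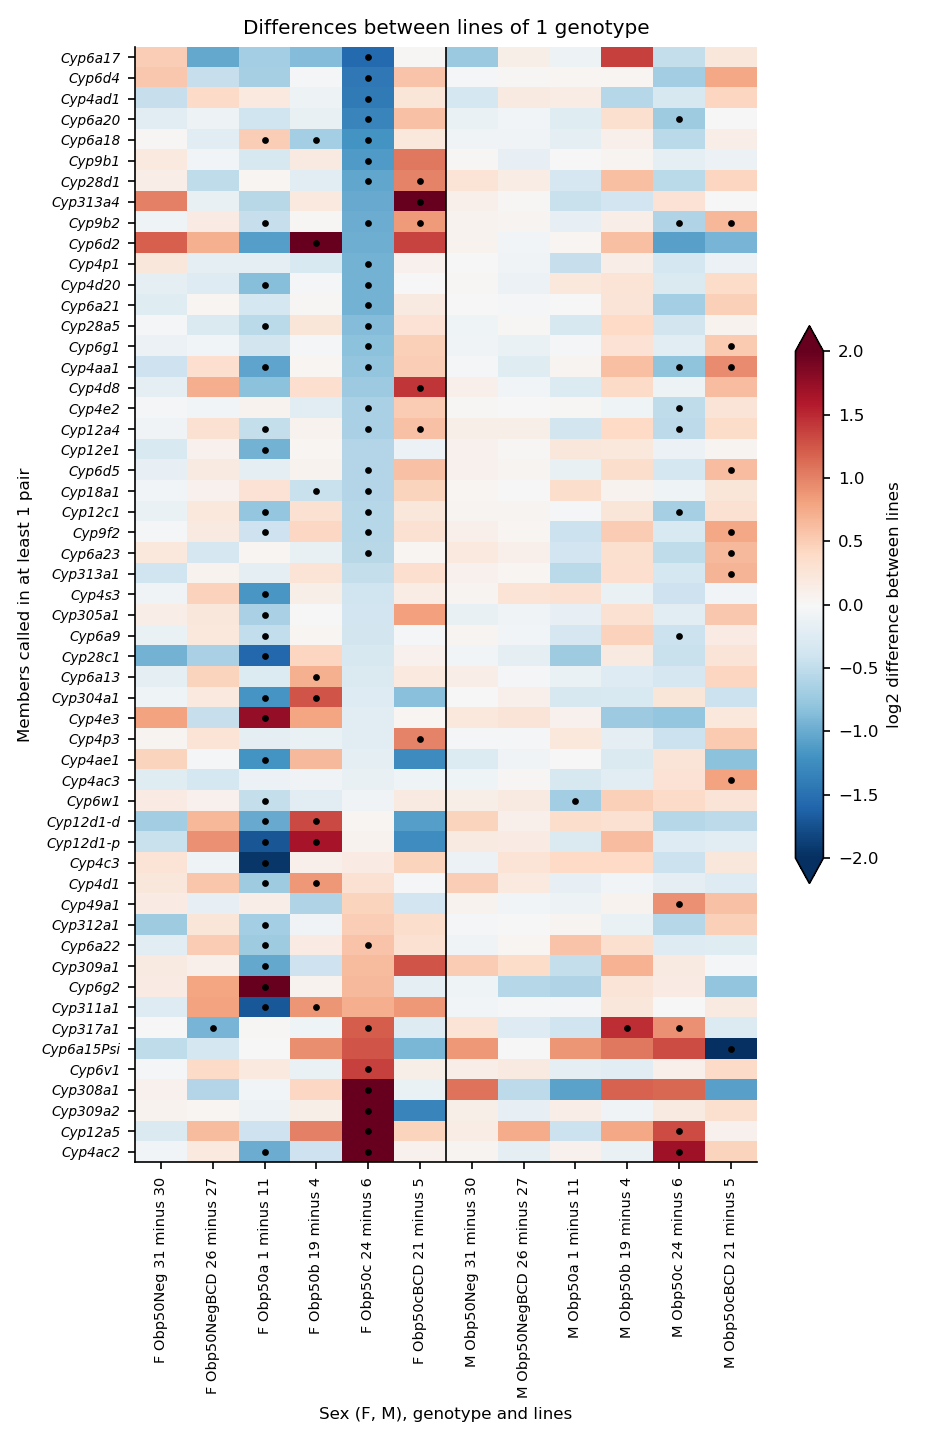
Difference between the 2 lines of a genotype (first line minus second, log2 scale, colour limited to 2 in either direction) for the 54 P450 genes called in at least 1 pair; columns are the 6 genotypes with 2 lines in females (F) and males (M), and black points mark calls. Columns of Obp50Neg and Obp50NegBCD hold 1 call, and those of Obp50a and Obp50c females 27 and 28.

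Lines 24 and 6 of Obp50c differed in 28 genes in females (34.6% of the family, 26.7% of all genes). Line 6 was the higher in 21 (14.1% of all genes) and line 24 in 7 (12.6% of all genes). *Cyp6a20* had 34.8 and 30.2 CPM in line 24 against 87.5 and 75 CPM in line 6 (-1.32 ± 0.22, adjusted p = 2.95e-05). *Cyp9b2* was at 38.1 and 37.8 against 83.4 and 67.3 CPM (-0.99 ± 0.18), and *Cyp6a18* at 9.85 and 10.1 against 22.7 and 22.7 CPM (-1.19 ± 0.19). In the other direction stood *Cyp4ac2* (4.55-fold, adjusted p = 1e-06), *Cyp12a5* (4.37-fold), *Cyp308a1* (4.05-fold), *Cyp6v1* (2.58-fold) and *Cyp317a1* (83.2 and 85.8 against 31.7 and 41.7 CPM). Line 24 also had the lowest midgut markers among females: the summed level of 7 genes for digestive enzymes was 4334 and 5287 CPM there, against 18270 and 21655 CPM in line 6 and 9522 or more in the other female libraries. Malpighian tubule markers were lowest there too, at 128 and 139 CPM against 196 and 232 CPM in line 6. The other tissue markers overlapped between these lines. Fat body markers were at 6172 and 5769 CPM in line 24 against 5821 and 5148 CPM in line 6, and oenocyte markers at 1562 and 1516 against 1650 and 1474 CPM. The part of the tissue markers in these differences was not tested. Without the females of line 24 the count of genes differing between lines in females was 21 in place of 40. The Obp50c pair of lines was then absent from the test, so its differences could not enter the 21.

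In males the same pair of lines differed in 11 genes (11.7% of all genes), 7 of them higher in line 6 (7.02% of all genes) and 4 in line 24 (4.68%). In all, 9 genes were called in both sexes, and all 9 had the same direction in both (6.84% of all genes did). *Cyp4ac2* had 34.2 and 50.2 CPM in males of line 24 against 14 and 11.9 CPM in line 6 (1.70 ± 0.28, adjusted p = 0.000145), and *Cyp12a5* at 99.4 and 101 against 49.5 and 31.7 CPM (1.30 ± 0.41, adjusted p = 0.0340). The other 7 were *Cyp317a1*, higher in line 24, and *Cyp12a4*, *Cyp12c1*, *Cyp4aa1*, *Cyp4e2*, *Cyp6a20* and *Cyp9b2*, higher in line 6. *Cyp12a5* and *Cyp12a4*, which adjoin on 3R in an array of 4.49 kb, thus moved in opposite directions between these lines in both sexes. *Cyp6v1*, which differed in females, had 22.4 and 24.4 CPM in males of line 24 against 23.1 and 20.8 CPM in those of line 6. Midgut markers were lower in males of line 24 too (5236 and 5380 CPM, against 11756 and 11997 CPM in line 6), as were Malpighian tubule markers (169 and 173 CPM, against 237 and 279 CPM). Oenocyte markers were also lower in these males (1410 and 1499 CPM, against 1798 and 1633 CPM). Fat body markers overlapped (6750 and 7259 CPM, against 6985 and 6586 CPM).

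**Figure D5:**
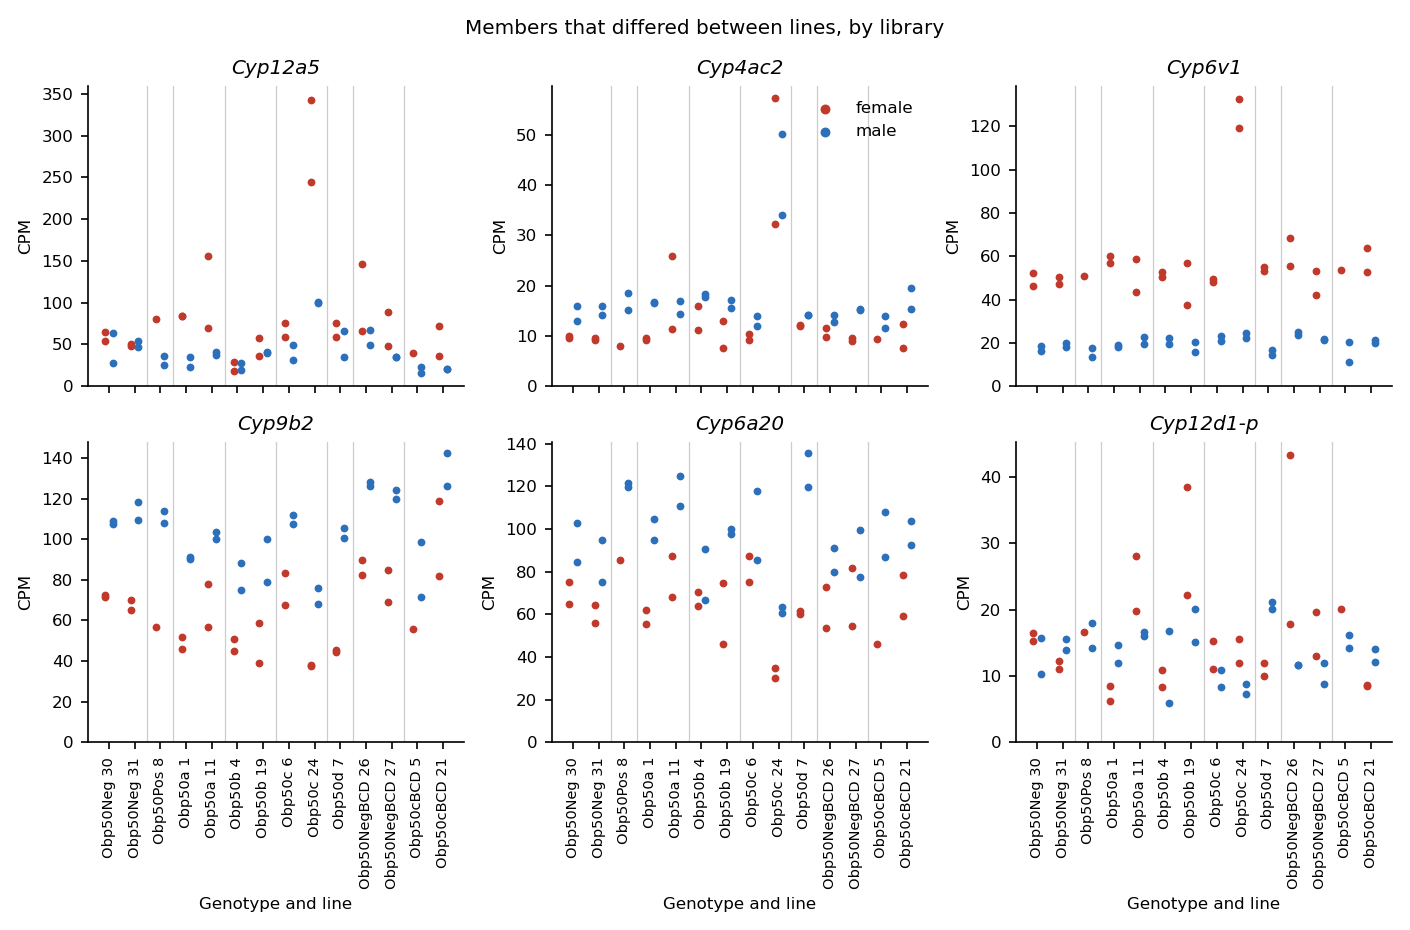
CPM of 6 P450 genes in each female (red) and male (blue) library, by genotype and line, each panel with its own axis from 0. *Cyp12a5* (up to 343 CPM), *Cyp4ac2* (up to 57.3 CPM) and, in females, *Cyp6v1* (up to 133 CPM) are highest in Obp50c line 24, where *Cyp9b2* and *Cyp6a20* are lowest in females.

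Lines 1 and 11 of Obp50a differed in 27 genes in females (33.3% of the family, 34.6% of all genes), of which 24 were higher in line 11 (17.7% of all genes). Malpighian tubule, midgut and oenocyte markers of females were lower in line 1 than in line 11, without overlap. In that order they were at 176 and 186 against 249 and 281 CPM, 9863 and 12987 against 15654 and 19695 CPM, and 1301 and 1315 against 1678 and 1715 CPM. Fat body markers went the other way, also without overlap, at 5731 and 6234 CPM in line 1 against 3945 and 5593 CPM in line 11. The part of the tissue markers in these differences was not tested. *Cyp12d1-p*, linked to DDT resistance, had 6.19 and 8.42 CPM in line 1 against 28.1 and 19.8 CPM in line 11 (-1.71 ± 0.36, adjusted p = 0.000437). *Cyp4d20* was at 14 and 13 against 21.8 and 27 CPM (-0.85 ± 0.17, adjusted p = 0.000168), and *Cyp311a1* at 2.69 and 3.11 against 5.12 and 13.7 CPM (-1.70 ± 0.33, adjusted p = 0.000153). *Cyp6g2*, singled out after its values were seen, had 35 and 10 fragments in line 1 females and 0 and 0 in line 11 females, where a count of 0 allows up to 0.190 and 0.178 CPM (3 fragments per library, counting error only). In males *Cyp6g2* was counted in both lines, with 1.87 and 1.92 CPM in line 1 against 2.39 and 3.40 CPM in line 11. Only *Cyp6w1*, linked to the breakdown of DDT, was called in males of these lines (0.376% of all genes), with 78.1 and 70.6 CPM in line 1 against 129 and 112 CPM in line 11 (-0.70 ± 0.16, adjusted p = 0.0453). It was called in the same direction in females (44.9 and 45.2 against 73 and 52 CPM). In males line 1 belongs to the first library set and line 11 to the second, so that the line and the set cannot be told apart there, while the females of both lines belong to the second.

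Lines 19 and 4 of Obp50b differed in 9 genes in females (11.1% of the family, 21.3% of all genes). *Cyp12d1-p* had 22.1 and 38.5 CPM in line 19 against 10.8 and 8.33 CPM in line 4 (1.66 ± 0.36, adjusted p = 0.000817), and its copy *Cyp12d1-d* at 7.57 and 11.4 against 3.99 and 3.61 CPM (1.31 ± 0.39). *Cyp6d2*, 51% overlapped and singled out after its values were seen, had 58 and 37 fragments in line 19 and 3 and 1 in line 4. In males 1 gene was called (0.108% of all genes): *Cyp317a1* had 28.6 and 64.8 CPM in line 19 against 15.2 and 18.3 CPM in line 4 (1.48 ± 0.28, adjusted p = 0.0150). One female library of line 4 belongs to the second library set and 1 male library to the set of 3, with the other libraries of both lines in the first.

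Lines 21 and 5 of Obp50cBCD differed in 6 genes in females, all higher in line 21, with 1 female library of line 5 (7.26% of all genes were called, 5.38% as higher in line 21). In males 9 genes were called (12.2% of all genes), 8 of them higher in line 21 (7.95%). *Cyp9b2* was called in both sexes, at 82 and 119 against 55.8 CPM in females (0.85 ± 0.23, adjusted p = 0.0189) and 143 and 126 against 71.6 and 98.4 CPM in males (0.66 ± 0.18, adjusted p = 0.0154). *Cyp9f2* in males was at 85.1 and 80.3 against 53.1 and 44 CPM (0.77 ± 0.16, adjusted p = 0.00286), and *Cyp313a1* at 131 and 131 against 94.8 and 67.9 CPM. Summed midgut markers were also higher in males of line 21 (15995 and 17569 against 11355 and 10557 CPM in line 5), and their part was not tested. Line 21 belongs to the first library set and line 5 to the other sets, so that the line and the set cannot be told apart.

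Across the family the spread between lines was set beside that between genotype means. The median SD on the log2 scale was 0.29 within lines, 0.33 between lines of a genotype and 0.26 between genotype means in females, and 0.21, 0.23 and 0.19 in males. In 56 of 81 genes in females and 57 in males the SD between lines exceeded that between genotype means. Most genotype means average the lines of that genotype, which by itself makes their SD smaller. These SDs therefore do not show whether lines or genotypes varied more. *Cyp12a5*, among the 6 highest genes in females, had log2 SDs of 0.49 within lines, 0.71 between lines and 0.65 between genotypes there. The others of these 6 had SDs within lines from 0.17 (*Cyp6d5*) to 0.25 (*Cyp6a20*), below the median. In males the 6 highest genes ran from 0.073 (*Cyp6g1*) to 0.19 (*Cyp6a20*) within lines, also below the median.

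Pairs of P450 genes that varied together were listed as a description. For 67 genes with a mean of at least 1 CPM, log2(CPM + 0.5) was freed of the mean of each sex and line, and Pearson's r was taken over the 52 libraries with a partner of their sex and line. The 2211 pairs had a median r of 0.0679. The highest were *Cyp6d5* with *Cyp9b2* (0.76), *Cyp6a18* with *Cyp6d4* (0.74), *Cyp4d20* with *Cyp9b2* (0.73), *Cyp6a13* with *Cyp6a2* (0.73) and *Cyp309a1* with *Cyp9h1* (0.71). Of the 12 highest pairs, 1 lies in an array, the copies *Cyp12d1-d* and *Cyp12d1-p* (0.68), and libraries of a pair share their depth and tissue make-up.

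*Cyp1*, the cyclophilin taken by the symbol rule, was at 824 to 1911 CPM in females (median 1145) and 222 to 631 CPM in males (median 427), without overlap. It was 2.77-fold higher in females (1.47 ± 0.08, adjusted p = 1.71e-20), and this held in all 8 genotypes.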

How the data were processed

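RNA from pools of 30 whole flies was depleted of ribosomal RNA and sequenced in pairs on a NovaSeq. The authors filtered reads with AfterQC, aligned them with GSNAP to release 6.13 and deposited counts of uniquely aligned fragments per gene, made with featureCounts 1.6.4 over exons without strand (file headers). Fragments overlapping 2 genes were not counted, and replicates were not pooled. Gene length (bases of exon) was the deposited value.

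As in the study, a gene was kept where 25% or more of the libraries held a fragment of it and its median count was 2 or more. Of 56 libraries, the 54 that the study used entered one fit. Tests were edgeR 4.0.16 quasi-likelihood tests with TMM scaling in R 4.3.3, adjusted by Benjamini-Hochberg over all genes kept, called below 0.05. The sex difference was the mean of the 8 differences within genotypes with line as a fixed block. Genotypes and contrasts were fitted on means of sex and genotype, and lines on means of sex and line. A mixed model after the study's, with a random interaction of line and sex added, was an alternative. Replicates are pools, so p-values measure the spread between these libraries. Scripts were tested on simulated data.

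The genes described were the 6 with the highest level per kb in each sex, the 6 with the largest difference in each direction of the sex comparison, the 6 with the smallest p in each joint test and in the female contrasts (3 for the interaction), every gene called in the male contrasts, and *Cyp1*. Others were singled out after their values were seen. Genes and lists were chosen with earlier results of these data known. Alternatives were DESeq2 1.42.0 and its size factors, limma 3.58.1 with line as a random block, lme4 1.1.37 with lmerTest 3.1.3, other filters, library sets, each sex alone, counts summed by line, all 56 libraries, and each library left out. Leaving out the male libraries high in yolk transcripts, leaving out the females of line 24, the first library set and another TMM reference library were added after seeing the data. Tables and figures were made in Python 3.11.15.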

Additional observations from a re-analysis of the deposited data

Results flagged for a closer look

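In groups of 4 libraries, a library was singled out where its gap to the nearest of the others exceeded 0.829 of the group's range. Of 363 groups of the genes described, 18 (4.96%) met this, and chance singles out about 1 in 20.

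*Cyp6a19* had 4 such libraries. In males they were Obp50NegBCD replicate 4 (10.2 CPM, others 0.231 to 0.402), Obp50c replicate 3 (9.30 CPM, others 0.156 to 0.403) and Obp50a replicate 1 (10.6 CPM, others 0.214 to 1.74), all 3 above 100 CPM of yolk transcripts. In females it was Obp50b replicate 2 (177 CPM, others 92.6 to 106), which was also the highest of its group in *Cyp1* (1911 CPM, others 1039 to 1121).

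Of the Obp50a females, 2 libraries of line 11 stood above their group, replicate 3 in *Cyp12a5* (156 CPM, others 70 to 84.4) and replicate 4 in *Cyp4ac2* (25.9 CPM, others 9.23 to 11.3). In Obp50a males, replicate 3 was high in *Cyp317a1* (25.1 CPM, others 16 to 17.6) and replicate 4 low in *Cyp4ac2* (14.3 CPM, others 16.6 to 17). In Obp50Neg, male replicate 4 was low in *Cyp6a23* (93 CPM, others 123 to 126) and *Cyp6w1* (84.7 CPM, others 102 to 103), female replicate 1 low in *Cyp311a1* (4.38 CPM, others 6.44 to 6.55) and female replicate 4 high in *Cyp312a1* (7.08 CPM, others 3.10 to 3.49). In Obp50NegBCD, male replicate 2 was low in *Cyp12d1-p* (8.74 CPM, others 11.6 to 12) and high in *Cyp311a1* (7.62 CPM, others 7.35 to 7.39), and female replicate 1 low in *Cyp6a8* (15.8 CPM, others 19.8 to 20.4). The others were Obp50c male replicate 4, high in *Cyp4d1* (11.3 CPM, others 8.70 to 9.08), and Obp50cBCD male replicate 4, low in *Cyp6v1* (10.9 CPM, others 19.7 to 21.4).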

How the results depend on the processing

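Counts of P450 genes by sex (8 higher in females and 23 in males) were 8 or 9 and 23 to 25 with 1 library left out, 7 and 31 with DESeq2 or its size factors, 8 and 18 in limma with line as a random block, 17 and 50 without the 2-fold minimum, and otherwise 8 to 11 and 22 to 24. The count differing among genotypes in females (19) was 0 summed by line, with females alone and in the mixed model, 2 in limma with line as a random block, 6 without male libraries high in yolk transcripts, 7 by DESeq2, 30 in the first set, and 12 to 25 with 1 library left out. In males (1) it was 0 summed by line, with library set as a term, without the males high in yolk transcripts and in limma, 2 with DESeq2 size factors, without a filter, with a mean count of at least 10, with all 56 libraries and in the first set, 3 with another TMM reference, 6 without the females of line 24, 12 with males alone, 22 by DESeq2, and 0 to 2 with 1 library left out. Contrasts in females (9) gave 0 summed by line, in limma and in the mixed model, 1 with females alone and without the males high in yolk transcripts, 4 with another TMM reference and with all 56 libraries, 5 without a filter and with library set as a term, and 1 to 11 with 1 library left out. Contrasts in males (0) gave 2 with males alone and 0 to 1 with 1 library left out. Lines in females (40) gave 21 without the females of line 24 and 33 to 43 with 1 library left out. In males lines (14) gave 8 with all 56 libraries, 7 without the males high in yolk transcripts, 5 in the first set and 6 to 16 with 1 library left out. Some of these fits tested fewer pairs of lines. The Obp50c pair was absent without the females of line 24. In males the Obp50a and Obp50b pairs were absent without the males high in yolk transcripts, and the Obp50a and Obp50cBCD pairs in the first set. The interaction (0) gave 7 without the males high in yolk transcripts, 1 without the females of line 24, 4 in the first set and 0 to 2 with 1 library left out. The first set holds no Obp50Pos libraries and no Obp50a females, so its counts among genotypes and for the interaction come from fewer genotypes. The cause was not tested.

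Of 3953 values for the genes described, 3795 kept their direction and side of the threshold, 107 lost the call, 19 gained it and 32 changed sign. The sign changed for *Cyp12d1-p* between the sexes with DESeq2 size factors (-0.108), for *Cyp4d20* between the sexes with them (-0.198), in the first set (-0.0373) and in 28 fits with 1 library left out (range over all such fits -0.0203 to 0.0215, where all libraries gave 0.000183), and for *Cyp6v1* in Obp50c females without line 24 (-0.00746). Single libraries could not be paired, because the replicate numbers only name libraries within a group. The sexes were matched by line, which was a fixed block in the sex comparison.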

Other observations

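Of the 6 ecdysone-making P450s with names of their own, *spo* had means of 6.34 CPM in females and 0.54 CPM in males, *sad* 2.81 and 0.693 CPM, and *dib* 0.757 and 0.296 CPM, while *shd*, whose enzyme makes the active hormone in peripheral tissues, had 4.55 and 4.48 CPM without a sex call. *phm* differed by 0.68 on the log2 scale, below the 2-fold minimum (edgeR quasi-likelihood test, adjusted p = 0.000503). Among genotypes in females *shd* (adjusted p = 0.000992) and *spok* (0.0192) were called, where 24.6% of all genes were, and 0 of the 6 differed between lines in females (48% of all genes). In males 2 of the 6 were called among genotypes (2.98% of all genes), and *spo* differed between lines (0.0295, 10.3% of all genes).

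Of the 6 genes in the list of electron partners, *Cpr*, *Cyt-b5*, *Cyt-b5-r* and *Fdx1* differed between lines of a genotype in females (edgeR quasi-likelihood test, adjusted p from 3.25e-05 to 0.000862). That is 4 of the 6, where 48% of all genes did, and 0 of the 6 differed among genotypes in either sex. Whether *Cyt-b5-r* passes electrons to P450s was not tested. Of the regulators, *cnc*, the fly counterpart of Nrf2, differed between lines in females (1.46e-05) with *tgo*, *maf-S* and *Hr96*, and *gce* among genotypes in females (0.00705). Glutathione transferases differed between lines in 23 of 35 genes in females and 9 of 35 in males, and UDP-glycosyltransferases in 13 and 6 of 35, where 48% and 10.3% of all genes did.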
